A study of Mus musculus with 82 samples.

Results

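The 9 genes described here encode the laminin chains, the basement membrane linkers and the integrin chains that fix the epidermis to the skin beneath it: Lama3, Lama5, Lamb1, Lamb3, Lamc1, Nid1, Hspg2, Itga6 and Itgb4. They were chosen by name among the 18679 mouse genes to which the probes of the array could be assigned, and each gene was followed through its brightest probe. All 9 genes passed the filter on dim probes, and each was well above background in the biopsy channel on every array of every group, apart from Lama3 on 1 of the 4 arrays of 20 Gy at h2.

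Male C57BL/6j mice, young adults by the ages the methods give, were exposed over the whole body to X-rays at doses of 1 Gy, 3 Gy, 6 Gy and 20 Gy, or went through the same handling without exposure (sham, 0 Gy). A dorsal skin biopsy was taken from the mice at hour 2 (h2) and at days 4, 7, 21 and 28 (d4, d7, d21 and d28), so that most animals gave several biopsies. Replicates within a group are separate mice per the labels. Biopsies of 24 mice gave 82 arrays, 16 of sham, 18 of 1 Gy, 20 of 3 Gy, 17 of 6 Gy and 11 of 20 Gy, in 23 groups of dose and time point with 2 to 5 arrays each, and the 4 mice that received 20 Gy gave arrays at h2 and d4 and 3 of them at d7. On each array the biopsy RNA carried the dye Cy5 and a purchased pool of mouse RNA, the same for all arrays, carried Cy3, so each value is a log2 ratio of biopsy over reference for that gene and says nothing about how one gene compares with another.

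Laminins are trimers of an alpha, a beta and a gamma chain, many of them cross-shaped, in the sheet on which epithelial cells rest. In the epidermis, the trimer that contains the Lama3 and Lamb3 chains is the anchor: basal keratinocytes secrete it and hold it with the integrin pair encoded by Itga6 and Itgb4 in hemidesmosomes, the rivets that also reach the keratin cytoskeleton. Lama5, Lamb1 and Lamc1 chains occur in the wider laminin network of epidermis, hair follicles, vessels and nerves, and nidogen (Nid1) and perlecan (Hspg2) join that network to the collagen IV mesh.

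The arrays of the 20 Gy mice stood apart before any gene was compared. The median Cy5 intensity of an array lay between 22 and 33 on 13 arrays and between 48 and 118 on the others. These 13 dim arrays were all 11 arrays of 20 Gy and 2 of the 16 sham arrays, both of d7 (mice M001 and M005), while the Cy3 median ranged from 66.5 to 167 with no such gap. Scanner 1 read every 20 Gy array and 8 sham arrays, whereas 49 of the 55 arrays of 1, 3 and 6 Gy were read on the other scanner, scanner 2. One slide carried the 4 h2 biopsies of 20 Gy and another those of d4, so that at these time points dose, slide and brightness cannot be told apart. At d7, 2 sham arrays (median Cy5 23 and 23.5) and the 3 arrays of 20 Gy (22 to 26.5) were about equally dim and were read on the same scan day. The normalized values that the authors deposited followed the scanner data to differing degrees: after centring each probe on its mean, a deposited column correlated with its own scanner data at r = 0.066 to 0.389 for the sham arrays of scanner 1 and 0.339 to 0.661 for the 20 Gy arrays, at 0.343 to 0.895 for the sham arrays of scanner 2, and down to 0.269 for the 6 Gy arrays of that scanner, so the ranges overlapped. The steps between scanner data and deposited values are not given in the sources used here, so results after 20 Gy are stated from both. In the deposited table the column of 20 Gy mouse M022 at d7 was within 0.1 of the mean of the other 2 columns for 97.7% of probes, against 48.1% in the scanner data, so that group holds only 2 independent columns there. Skin markers were present throughout: the 4 basal keratinocyte markers (Krt5, Krt14, Krt15 and Trp63) were above background on all arrays of sham and 20 Gy.

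Promoter windows from 250 bases before to 50 bases after the start (RefSeq, GRCm38.p6) were searched for 5 of the 9 genes, and those of the beta chains Lamb3 and Lamb1 are shown. Lamb3 read above the reference in skin and was called lower after 20 Gy in the scanner data but not in the deposited values. Lamb1 read below the reference and was called higher in the deposited values but not in the scanner data. With the main processing neither source called both genes against sham. A link between promoter and response was not tested. Capitals mark matches of the GC box GGGCGG, an element of many housekeeping promoters, on either strand (CCGCCC on the other). The activator protein AP-1 motif TGANTCA, searched on both strands, was in none of the 6 windows of these 5 genes. Lama3, Lamc1, Itga6 and Itgb4 were not searched. The windows are chr1:193301744-193302043 on the plus strand for Lamb3 and chr12:31265043-31265342 on the plus strand for Lamb1.
Lamb3: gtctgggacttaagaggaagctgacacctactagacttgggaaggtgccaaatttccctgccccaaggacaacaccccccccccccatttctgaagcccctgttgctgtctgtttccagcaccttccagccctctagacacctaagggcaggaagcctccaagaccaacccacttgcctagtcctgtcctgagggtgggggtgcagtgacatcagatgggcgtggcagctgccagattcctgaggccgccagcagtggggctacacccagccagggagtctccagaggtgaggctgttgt
Lamb1: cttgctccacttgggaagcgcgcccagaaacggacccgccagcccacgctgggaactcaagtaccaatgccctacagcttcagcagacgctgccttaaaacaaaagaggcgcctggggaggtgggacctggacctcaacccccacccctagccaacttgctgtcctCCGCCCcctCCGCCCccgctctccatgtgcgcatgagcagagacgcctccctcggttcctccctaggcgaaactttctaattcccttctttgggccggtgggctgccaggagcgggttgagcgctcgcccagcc
The Lamb3 window held 2 CpG dinucleotides and no GC box, and the window of a further Lamb3 start downstream held 5 and none. The Lamb1 window held 18 CpG dinucleotides and 2 GC boxes. The windows of Lama5 (24 CpG, 4 GC boxes), Hspg2 (27 and 5) and Nid1 (20 and 1) were of the latter kind. Over all 32851 mouse promoter windows the median was 7 CpG, the GC box was in 35.7% and the AP-1 motif in 7.81%, so the Lamb3 windows lay below the median in CpG and the other 4 genes above it.

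Among the laminin chains, Lama3 and Lamb3 were higher in unexposed skin than in the reference pool. In the 16 sham arrays the log2 ratio of Lama3 ran from 0.43 over a median of 2.52 to 3.02, and that of Lamb3 in 15 sham arrays from 0.92 over 1.57 to 2.59. Lamb3 was read higher on the scanner 1 sham arrays of h2 and d4 (2.27 to 2.59, n = 5) than on the scanner 2 sham arrays (0.92 to 2.06, n = 8). Lama5 and Lamb1, chains of laminins found in many tissues, were lower in skin than in the reference, with sham medians of -0.44 (-1.94 to -0.11) and -0.68 (-1.70 to 0.09). Lamc1, the gamma chain that most laminins share, lay near the reference, at -0.16 (-1.03 to 0.80).

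The linkers were near the reference too. Nid1 had a sham median of -0.08 (-1.20 to 1.09, n = 15) and Hspg2 of -0.25 (-1.90 to 0.88, n = 15). The integrin chains were enriched in skin. Itgb4, whose long intracellular tail binds the hemidesmosome plaque, ran from 2.12 over 3.84 to 4.51 in 14 sham arrays, and its partner Itga6 from 0.01 over 1.18 to 1.78 in 16. The sham groups of Itgb4 differed with time, from a mean of 4.24 ± 0.29 (SD, n = 4) at d4 to 2.21 ± 0.12 (SD, n = 2) at d28, which was not tested as a change in time. Scanner differed between these groups too. The sham arrays of d4 were on scanner 1, apart from that of mouse M002 (3.81), and those of d28 on scanner 2. Itgb4 read 4.29 to 4.51 on the scanner 1 sham arrays of h2 and d4 and 2.12 to 3.87 on those of scanner 2. The deposited means were 3.96 at d4 and 3.18 at d28.

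**Figure D1:**
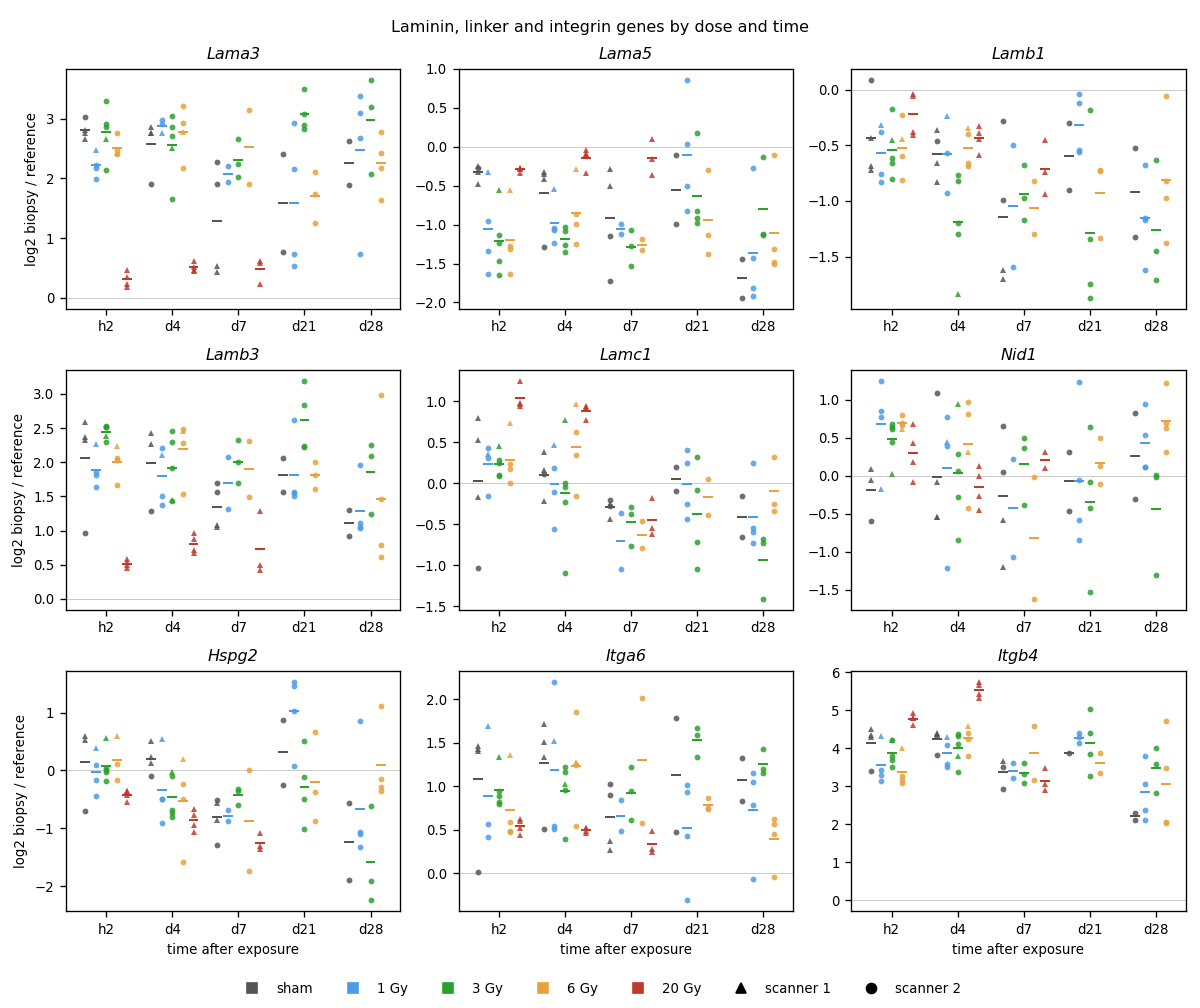
Log2 ratio of biopsy over reference (vertical axis) for each member at 5 time points (horizontal axis), with 1 point per array, triangles for scanner 1, circles for scanner 2, colours for dose and a dash for each group mean. The 20 Gy arrays lie below the sham arrays for Lama3 and Lamb3 at h2 and d4 and above them for Itgb4 at d4, and the 2 sham triangles of d7 lie with the 20 Gy arrays for Lama3.

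Array values of sham are given below with the scanner 1 arrays first and mouse M002, on scanner 2 at h2 and d4, last. After 20 Gy, 3 of the 9 members passed the threshold against sham at h2 and 4 at d4 in the scanner data, and none at d7. A gene was called when its adjusted p in limma was under 0.05 and its change at least 2-fold. The epidermal laminin chains Lama3 and Lamb3 were lower at both early time points, Lamc1 was higher at h2, Itgb4 was higher and Hspg2 lower at d4. The share called among all tested probes was 14.2% for h2, 13% for d4 and 3.12% for d7. The shares of members rest on 9 genes. At d7, where 0 members were called, 1 of 9 (Lama5) had an unadjusted p under 0.05. For the 9 members the median log2 change was 0.04, -0.13 and -0.22 in order of time, against -0.01, -0.02 and 0.02 over all probes. With median centring in place of loess, all 9 members were lower and called at h2, and 8 were called at d4. The direction of Lama5, Lamb1, Lamc1, Itgb4 and, at h2, Nid1 thus turned with that setting. Most of the other basement membrane and hemidesmosome genes were called at h2 and d4 as well under it (last section). Its share over all probes was not counted. In whole skin, fewer cells of a type and less RNA per cell cannot be told apart.

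Lama3, which encodes the alpha chain of the epidermal anchor, was lower at h2 and d4. At h2 the sham arrays read 2.80, 2.75, 2.65 and 3.02 and the 20 Gy arrays 0.23, 0.18, 0.47 and 0.35. At d4 the sham arrays read 2.75, 2.75, 2.86 and 1.91, and the 20 Gy arrays 0.52, 0.45, 0.62 and 0.47. All 20 Gy arrays were below all sham arrays at both time points, with log2 changes of -2.50 ± 0.40 (SE, adjusted p = 1.62e-06, 5.65-fold lower) and -2.05 ± 0.40 (adjusted p = 6.16e-05, 4.14-fold lower). At d7 the 20 Gy arrays read 0.58, 0.61 and 0.23. The sham arrays of d7 differed by brightness: the dim ones read 0.54 and 0.43, inside the range of the 20 Gy arrays, and the others 1.91 and 2.27. The change at d7 was -0.82 ± 0.43 (adjusted p = 0.333) over all sham arrays and -0.01 ± 0.11 (adjusted p = 0.98) against the 2 equally dim ones on scanner 1. In the deposited values Lama3 differed by -0.60 ± 0.21 at h2, -0.46 ± 0.21 at d4 and -0.37 ± 0.23 at d7 and was not called. In the log ratios of the scanner software it was called at h2 (-1.33) and differed by -0.08 at d4 (adjusted p = 0.897). With sham of all time points in place of sham of d7 it was called at d7 as well (-1.67, adjusted p = 0.000265). A second, dimmer Lama3 probe, above background on 41 of 82 arrays, differed by 0.06, 0.01 and 0.08 at the 3 time points.

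Lamb3, the beta chain of the same trimer, was lower at the same time points. At h2 the sham arrays read 2.59, 2.37, 2.33 and 0.97, the last being the only sham array of that time point on scanner 2, and the 20 Gy arrays read 0.54, 0.58, 0.50 and 0.45. At d4 the 3 sham arrays with a value read 2.27, 2.42 and 1.28, the 20 Gy arrays 0.67, 0.88, 0.96 and 0.72. The groups did not overlap at h2 or d4, and Lamb3 was lower by -1.54 ± 0.33 (adjusted p = 0.000165) and -1.18 ± 0.35 (adjusted p = 0.00774). The call at d4 was lost without sham mouse M005 (-0.97, adjusted p = 0.0668), with slide as a random block (-0.999, adjusted p = 0.178) and in the scanner software ratios (-0.51). It was also lost with sham of all time points (-0.91), without background subtraction (-0.90), with normexp on all spots (-1.11, adjusted p = 0.0923) and with an offset of 1 (-0.79, adjusted p = 0.0974). At d7 the 20 Gy arrays (1.28, 0.49 and 0.42) overlapped the sham arrays (1.05, 1.08, 1.69 and 1.56), and the change of -0.61 ± 0.35 did not pass (adjusted p = 0.391). The deposited values gave -0.16 ± 0.21, -0.27 ± 0.21 and -0.19 ± 0.22, none of them called.

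Lamc1 rose at h2, from sham values of -0.17, 0.53, 0.80 and -1.03 to 0.94, 1.25, 0.97 and 0.98 after 20 Gy. The lowest 20 Gy array was above the highest sham array, and the change was 1.00 ± 0.28 (adjusted p = 0.00458), just at the 2-fold limit. It was 0.65 without mouse M002, the sham array on scanner 2 (adjusted p = 0.0797), and fell under 2-fold without M001 (0.93) or M022 (0.93). With scanner as a fixed block it was 0.87 and with normexp on all spots 0.99, so that the call was lost under both settings. Centring each array on its median in place of the intensity-dependent loess fit turned it to -1.56. At d4 the change of 0.78 ± 0.28 stayed under 2-fold (adjusted p = 0.0299), and at d7 it was -0.15 ± 0.31. The deposited values had the opposite sign at h2 and d4, -0.33 ± 0.17 and -0.21 ± 0.17.

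Lamb1 and Lama5 were not called against sham in the scanner data. Lamb1 differed from sham by 0.21 ± 0.28 at h2, 0.14 ± 0.28 at d4 and 0.43 ± 0.30 at d7. Lamb1 was the only member called against sham after 20 Gy in the deposited values, higher by 1.06 ± 0.20 at h2 (adjusted p = 5.04e-05) and by 1.03 ± 0.22 at d7 (adjusted p = 0.000261, and 0.00258 without the column of M022). There the 20 Gy columns of h2 read 0.92, 0.61, 1.02 and 0.56 and the sham columns -0.20, -0.38, -0.45 and -0.08, without overlap. The paper likewise lists Lamb1 as more than 2-fold higher at h2 and d7 after this dose, with no entry at d4. At d4 no member was called in the deposited values, where Lamb1 differed by 0.92 ± 0.20 (adjusted p = 0.000383, under 2-fold). There 7 of 9 members had an unadjusted p under 0.05 in limma. Of these, Lamb1, Lama5 and Nid1 were higher and Lama3, Itga6, Itgb4 and Hspg2 lower. The share of all probes at that limit was not counted. Against the 2 equally dim sham arrays of d7, the scanner data also placed Lamb1 higher, by 0.95 ± 0.16 (adjusted p = 0.000506, under 2-fold), with 20 Gy at -0.74, -0.45 and -0.94 and the dim sham arrays at -1.62 and -1.70. Lama5 differed by 0.04 ± 0.33, 0.45 ± 0.33 and 0.78 ± 0.35 (adjusted p = 0.218 at d7) and by 0.57 ± 0.15, 0.54 ± 0.15 and 0.79 ± 0.17 in the deposited values, under 2-fold in each. In the log ratios of the scanner software Lama5 was called at d7 (1.55, adjusted p = 0.0103). Over all probes the deposited values called 3.23% at h2, 3.11% at d4 and 3.39% at d7.

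Of the linkers, Hspg2 was lower at d4. Its sham arrays read 0.23, 0.51, 0.13 and -0.10 and the 20 Gy arrays -0.94, -0.67, -1.07 and -0.77, without overlap, for a change of -1.06 ± 0.40 (adjusted p = 0.0366). The call was lost with slide as a random block (-0.89, adjusted p = 0.274), with sham of all time points (-0.63, adjusted p = 0.128) and when any 1 of the mice M001, M004, M005 and M021 to M024 was left out, with adjusted p between 0.0544 and 0.10, while the size stayed between -1.12 and -0.95. At h2 and d7 the change was -0.57 ± 0.43 and -0.44 ± 0.43, and with sham of all time points it was called at d7 (-1.01, adjusted p = 0.03). The 2 dim sham arrays of d7 read -0.86 and -0.57 for Hspg2, and against them the d7 change was -0.53 ± 0.13 (adjusted p = 0.0154, under 2-fold). The deposited values lay between -0.56 and -0.61 at the 3 time points, under 2-fold, with adjusted p of 0.0362, 0.0376 and 0.0365, and 0.0954 at d7 without the column of M022. Nid1 differed by 0.49 ± 0.46, -0.13 ± 0.43 and 0.48 ± 0.53 and overlapped with sham at each time point. Against the 2 dim sham arrays of d7 (-0.58 and -1.20), the 2 arrays of 20 Gy with a value (0.32 and 0.10) were higher by 1.1 ± 0.25 (adjusted p = 0.00786), which passes the threshold on 4 arrays.

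Of the integrin receptors, Itgb4 was higher at d4. The sham arrays read 4.35, 4.38, 4.41 and 3.81, the 20 Gy arrays 5.42, 5.74, 5.65 and 5.33, and the change was 1.30 ± 0.37 (adjusted p = 0.00469, 2.46-fold higher). With slide as a random block it was 1.36 (adjusted p = 0.0782), with normexp on all spots 1.33 (adjusted p = 0.0807), and with median centring in place of loess it turned to -0.90 (adjusted p = 0.223). At h2 the groups did not overlap either, with 4.78, 4.80, 4.93 and 4.60 against 4.51, 4.29, 4.35 and 3.40, but the change of 0.64 ± 0.37 did not pass (adjusted p = 0.18). It was called at h2 in the scanner software ratios (1.15, adjusted p = 0.0101), with sham of all time points (1.08, adjusted p = 0.00278) and with an offset of 1 (1.13, adjusted p = 0.0117). At d7 Itgb4 differed by -0.22 ± 0.42. A second Itgb4 probe gave 0.37, 1.47 and -0.30. In the deposited values the sign was the opposite at h2 (-0.97 ± 0.26) and at d4 (-0.84 ± 0.26), where the 20 Gy columns read 3.08, 3.22, 3.29 and 2.85 and the sham columns 3.66, 3.83, 3.96 and 4.36. Itga6 differed by -0.53 ± 0.33, -0.77 ± 0.33 (adjusted p = 0.0619) and -0.31 ± 0.35. On scanner 1 alone, where its sham arrays of d4 read 1.34, 1.51 and 1.72 and its 20 Gy arrays 0.46, 0.52, 0.52 and 0.48, Itga6 passed the threshold at d4 with -1.03 ± 0.08 (adjusted p = 5.73e-09). These sham arrays were all brighter than the 20 Gy arrays. The 2 dim sham arrays of d7 read 0.27 and 0.37, and against them the change of Itga6 at d7 was 0.01 ± 0.10 (adjusted p = 0.979). The deposited values of Itga6 were smaller, at -0.18, -0.32 and -0.18.

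**Figure D2:**
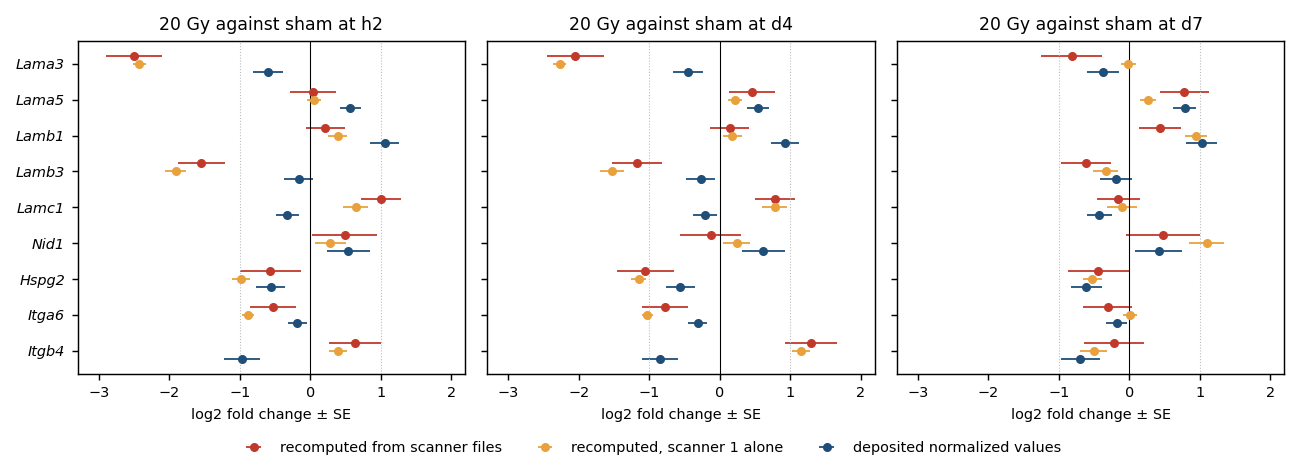
Log2 fold change after 20 Gy against sham (horizontal axis, with standard error) of each member at h2, d4 and d7, from the scanner data over all arrays, from the scanner data of scanner 1 alone and from the deposited values, with dotted lines at a 2-fold change. The scanner data and the deposited values lie on opposite sides of 0 for Itgb4 and Lamc1 at h2 and d4, and all 3 sources put Hspg2 below 0 at each time point.

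The ratio of Lama3 was low on all arrays with a dim biopsy channel. On the 13 dim arrays Lama3 read 0.18 to 0.62, sham and 20 Gy together, and on the 6 brighter sham arrays of scanner 1 it read 2.65 to 2.86. It was also low on 4 brighter arrays of scanner 2, at 0.76 in sham mouse M002 at d21 and at 0.54, 0.73 and 0.74 after 1 Gy, where the deposited values were 2.25 to 2.39. The biopsy channel intensity of Lama3 was 31 to 43 on the 20 Gy arrays of h2 and 396 to 485 on the sham arrays. Other members also read lower on the 2 dim sham arrays of d7 than on the brighter sham arrays of scanner 1 (h2 and d4). Lamb3 read 1.05 to 1.08 against 2.27 to 2.59, and Itga6 0.27 to 0.37 against 1.34 to 1.72. Hspg2 read -0.86 to -0.57 against 0.13 to 0.6. The 20 Gy arrays of all time points read 0.42 to 1.28, 0.24 to 0.62 and -1.36 to -0.36. Lamb1, Lamc1, Nid1 and Itgb4 were lower on the dim sham arrays as well, and Lama5 overlapped. A constant of 50 was added to every corrected intensity. With a constant of 1, chosen after these values were seen, Lama3 differed by -2.64, -1.46 and -0.61 at h2, d4 and d7 and Lamb3 by -1.36, -0.79 and -0.28, closer to 0 than with 50 in 5 of the 6 values. The part of brightness in the early differences was not tested, since no sham array of h2 or d4 was as dim. Markers of basal keratinocytes moved in both directions in the scanner data at h2, with Krt5 at 2.88 and Trp63 at -3.20 in log2 change from sham, whereas in the deposited values all 4 markers were lower, with -1.60 and -1.23 for the same genes. The mean log2 ratio of the 4 markers ranged from 4.21 to 5.41 on the 20 Gy arrays of h2 and from 4.36 to 5.41 on the sham arrays. At d7 it ranged from 3.19 to 3.45 after 20 Gy and from 4.01 to 4.37 in sham. The 5 endothelial markers had a mean of 0.46 to 0.72 after 20 Gy and 2.16 to 2.44 in sham at h2 and were above background in 75% and 100% of their readings. In the deposited values the means of these groups were 2.71 and 2.72. Of the 5 markers, 4 were called lower in the scanner data, and Pecam1 differed by 0.65. The part of cell composition in the members' values was not tested.

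**Figure D3:**
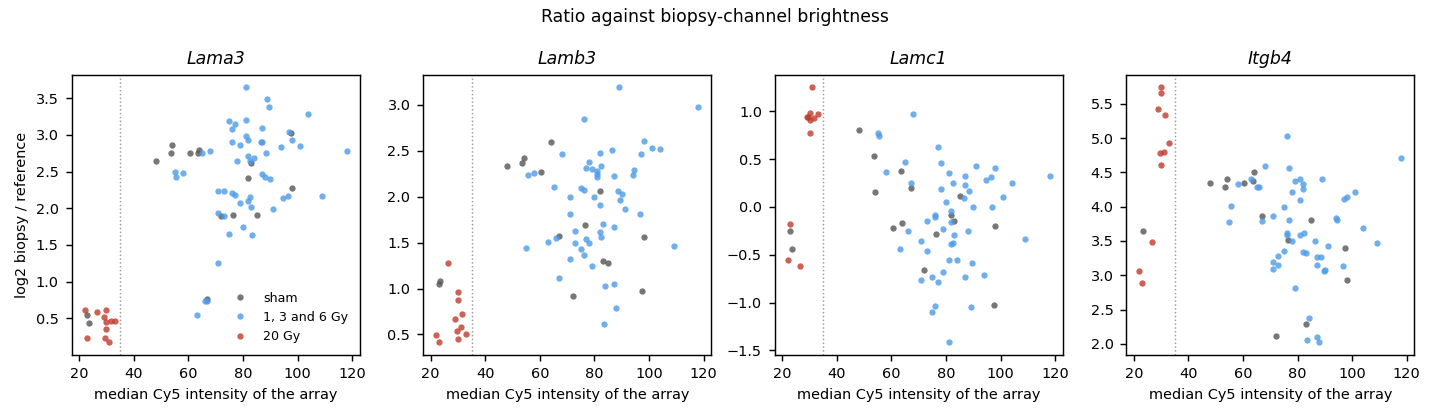
Log2 ratio of biopsy over reference (vertical axis) of Lama3, Lamb3, Lamc1 and Itgb4 against the median Cy5 intensity of the array (horizontal axis), with 1 point per array and a dotted line at 35. The 2 sham arrays left of the line lie with the 20 Gy arrays for Lama3, and the 20 Gy arrays of Lamc1 and Itgb4 form 2 clusters, of which the lower holds the d7 arrays.

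Against 6 Gy, the next lower dose, Lama3 and Lamb3 were lower and Itgb4 was higher at h2 and d4 in the scanner data. Lama3 was lower after 20 Gy by -2.20 ± 0.40 at h2, -2.26 ± 0.40 at d4 and -2.06 ± 0.52 at d7, called each time (adjusted p = 1.8e-05, 1.8e-05 and 0.00356). Lamb3 was lower by -1.48, -1.38 and -1.17, with adjusted p of 0.000301, 0.001 and 0.0496. Itgb4 was higher by 1.40 ± 0.37 at h2 and 1.27 ± 0.37 at d4, and differed by -0.72 ± 0.47 at d7. Thus 3, 3 and 2 of the 9 members were called, beside 14.3%, 10.7% and 9.6% of all probes. Leaving out 6 Gy mouse M018 removed both calls at d7 (Lama3 -1.43, adjusted p = 0.205), and that group holds 2 arrays, both on scanner 2. The call of Lamb3 at d7 was also lost without any 1 of 15 other mice, at an adjusted p of up to 0.18. These comparisons use the same 20 Gy arrays as those with sham. All 20 Gy arrays were on scanner 1, with a median Cy5 of 22 to 33. The 6 Gy arrays of all time points had a median Cy5 of 55.5 to 118, and only those of mouse M017 (h2 and d4) were on scanner 1. Dose and brightness thus cannot be told apart here. Against the 2 equally dim sham arrays of d7, Lama3 differed by -0.01.

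The deposited values gave other calls against 6 Gy. Lama3 differed by -0.70, -0.79 and -0.97 at h2, d4 and d7 and Lamb3 by -0.50, -0.62 and -0.53, under 2-fold in each. Itgb4 was on the other side of 0 at h2 and d4, at -0.85 and -1.05, of which the latter was called, and was called lower at d7 (-1.16 ± 0.33). With median centring of the scanner data it was at -0.42 and -0.35 at h2 and d4. Lamb1 was called higher at each time point, by 1.38 ± 0.20, 1.14 ± 0.20 and 1.82 ± 0.26 (adjusted p = 1.47e-07, 8.75e-06 and 1.32e-07). At d7 Lama5 (1.04 ± 0.20) and Nid1 (1.22 ± 0.40, adjusted p = 0.0166) were called higher as well. The d7 values against 6 Gy include the deposited column that was nearly the mean of the other 2 in its group. The 6 Gy group of d7 holds 2 arrays. The errors and adjusted p of all d7 calls against 6 Gy thus overstate the precision. Values without that column are not given here for this comparison. All probes of the deposited table were called at 5.05%, 4.9% and 5.96%.

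No member's difference from sham changed between time points beyond the threshold. For d4 minus h2, d7 minus h2 and d7 minus d4, 0 of 9 members were called in limma, beside 0.0198%, 7.42% and 6.28% of all probes, and 5 of the 27 values had an unadjusted p under 0.05. The Lama3 gap was smaller at d7 than at h2 by 1.68 ± 0.59 (adjusted p = 0.0576), and Itgb4 was lower at d7 than at d4 by -1.52 ± 0.56 (adjusted p = 0.0813). With mouse as a random replicate block 2 of the 27 values were called, and without mice M003, M004, M005, M006, M008 or M020 1 was called each time.

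After 1, 3 and 6 Gy, no member was called in any of the 15 comparisons with sham, early or late. Of the 135 values, 12 had an unadjusted p under 0.05 in limma and the lowest adjusted p was 0.238. The log2 changes ran from -0.88 to 1.49, with standard errors between 0.27 and 0.64, and 130 of 135 were under 2-fold in size. All probes gave little more: the share called after 1 Gy was 0.0165% at h2, 0% at d4, d7 and d21 and 0.0132% at d28. After 3 Gy it was 0% at h2 and d7, 0.0033% at d4, 0.00334% at d21 and 0.00663% at d28. After 6 Gy it was 0% at h2 and d21, 0.0627% at d4, 0.00992% at d7 and 0.00991% at d28. A count of 0 of 9 members is near these shares. On scanner 1 alone, where 53 values could be had, Lamb1 (-1.22 ± 0.20) and Nid1 (1.33 ± 0.29) were called after 3 Gy at d4, on a lone array of mouse M011 that is assumed to vary like the other groups.

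Some sublethal values stood out by unadjusted p, of which examples follow. Lama5 was lower at h2 after 3 Gy by -0.88 ± 0.31 (adjusted p = 0.238) and after 6 Gy by -0.87 ± 0.33 (adjusted p = 0.291), with no overlap with the sham arrays, and after 1 Gy by -0.73 ± 0.33 (adjusted p = 0.307). These comparisons share their 4 sham arrays, of which 3 were read on scanner 1, and Lama5 read -0.48 to -0.25 on the sham arrays of scanner 1 at h2 and d4 and -1.94 to -0.11 on those of scanner 2. Lama3 read higher after 3 Gy at d21, at a mean of 3.07 against 1.58, by 1.49 ± 0.49 (adjusted p = 0.403), without overlap with the 2 sham arrays (2.41 and 0.76). Hspg2 read higher after 6 Gy at d28, by 1.32 ± 0.49 (adjusted p = 0.33), and Itgb4 after 3 Gy at d28, by 1.26 ± 0.47 (adjusted p = 0.393), again against 2 sham arrays. At d7 Lama3 read higher after 6 Gy (mean 2.53) and after 3 Gy (2.30) than in sham (1.29). The 2 dim sham arrays of d7 read 0.54 and 0.43 for Lama3. None of these differences passed the adjustment over all probes. In the deposited values the same comparisons were smaller. Lama5 differed by -0.10, -0.33 and -0.20 at h2 after 3, 6 and 1 Gy, Lama3 by 0.59 at d21, Hspg2 by 0.39 and Itgb4 by 0.35. At d7 Lama3 differed by 0.60 after 6 Gy and by 0.47 after 3 Gy.

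The difference from sham at d21 and d28 minus that of the first week was called for 0 of 9 members after each of 1, 3 and 6 Gy, beside 0%, 0.0603% and 0% of all probes in limma. Of the 27 values 4 had an unadjusted p under 0.05, of which Lama5 after 3 Gy was the lowest, at 1.02 ± 0.35 (adjusted p = 0.161).

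**Figure D4:**
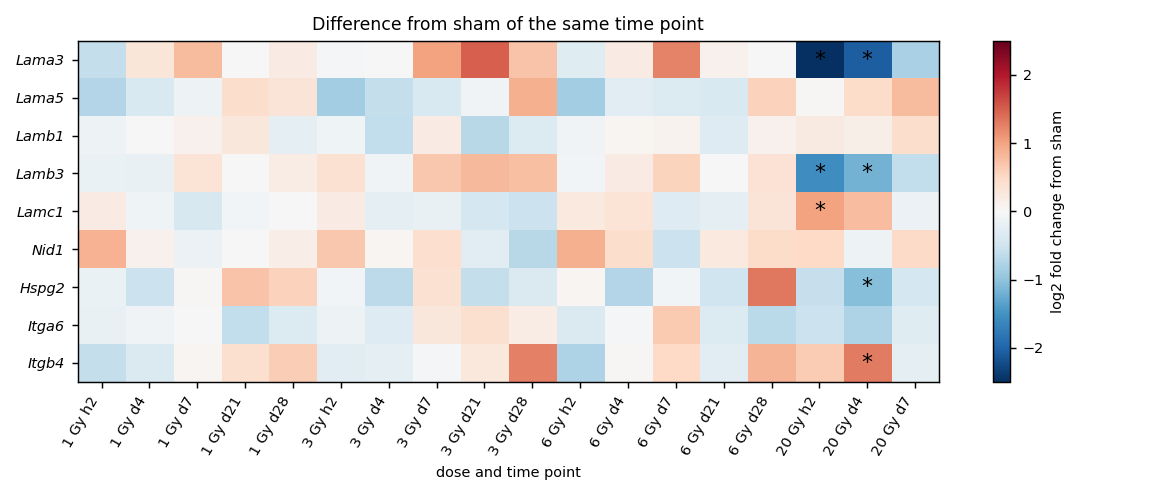
Log2 fold change from sham of the same time point (colour) for each member (rows) at each dose and time point (columns), from the scanner data, with an asterisk where the call threshold was passed. The asterisks are all in the 20 Gy columns of h2 and d4.

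Of the other genes of these structures, 47 in 6 lists of which 44 were tested, 14 were called at h2 (5 higher, 9 lower), 11 at d4 (2 and 9) and 6 at d7 (0 and 6) after 20 Gy, beside 14.2%, 13% and 3.12% of all probes. In the deposited values the counts were 8, 8 and 7, of which 1, 0 and 0 were higher, beside 3.23%, 3.11% and 3.39% of all probes. The median change over the 44 genes was -0.07, 0.05 and -0.19 in the scanner data and -0.10, -0.25 and -0.16 in the deposited values.

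Lama4, a chain of vessel walls, was called at all 3 time points (-2.88, -3.17 and -2.49), but differed by -0.33 against the equally dim sham arrays of d7. Lama2, a chain of muscle and nerve, was lower by -1.12 and -1.36 at h2 and d4. Neither laminin chain was called in the deposited values.

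Bcam, a receptor for the Lama5 chain, was lower in every source. It was called at h2, d4 and d7 in the scanner data (-2.03 ± 0.47, -2.08 ± 0.44 and -1.75 ± 0.47) and in the deposited values (-1.22, -1.34 and -1.27), and differed by -0.67 against the dim sham arrays of d7. The other receptors held 1 more call, Cd151, a partner of laminin-binding integrins, at d7 (-1.13). Among the linkers, Frem2, a protein of the epidermal basement membrane, was lower at h2 and d4 (-2.32 and -2.17), as were Egflam (-1.76 and -1.50) and Fbln1 (-1.30 and -1.16), and none of the 3 was called in the deposited values. Fbln2, a fibulin of the matrix, was higher (2.24 and 1.85), beside 0.20 and 0.12 in the deposited values and -0.62 and -0.55 with median centring. Smoc2, a calcium-binding matrix protein, was higher by 2.83 and 1.96 in the scanner data and lower by -1.32 and -1.35 in the deposited values, called in both. Col4a1, a main chain of the collagen IV mesh, was lower at h2 and d4 (-1.18 and -1.73), and the deposited values were -0.08 and -0.32. At h2 Col4a4 (1.28), a further collagen IV chain, Npnt (1.04), a ligand of integrins in the matrix, and the cytoplasmic integrin linker Tln1 (1.25) were higher. Fermt1, the kindlin of keratinocytes, was lower at h2 and d4 (-1.17 and -1.01). The hemidesmosome plaque and anchoring genes held 1 call among 4, Col7a1 of the anchoring fibrils, at d7 (-1.49, and -1.68 in the deposited values). The matrix proteins Col15a1 (-2.82) and Sparc (-3.19) were lower at d7 as well, also in the deposited values (-2.91 and -2.88) and against the dim sham arrays (-2.20 and -3.29). The paper lists Col7a1 and Col15a1 as lower at h2 and d4 too after the same dose. Deposited values of Col7a1, Col15a1 and Sparc at h2 and d4 are not given here, so no change specific to d7 is shown. After 1, 3 and 6 Gy none of the 44 genes was called in the scanner data with the main processing. Leaving out 1 mouse at a time gave 0 to 6 calls. Some other settings and the deposited values gave calls as well (last section).

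Members of a shared trimer or receptor varied together across arrays to differing degrees. Over 76 to 80 arrays a pair, Lama3 and Lamb3 correlated at r = 0.755, Lama3 and Itga6 at r = 0.624 and Lamb3 and Itga6 at r = 0.58, whereas Itga6 and Itgb4, partners in 1 receptor, correlated at r = 0.111 and Lama3 and Lama5 at r = -0.47. Lama5 and Itgb4 correlated at r = 0.668 and Lamb1 and Lamc1 at r = 0.502. The points share mice, slides, scanners and the reference pool, and the 20 Gy arrays are among them, so the values are descriptions. The tested genes whose ratio was most like that of a member were Nipal2 (r = 0.925) and Cttnbp2 (0.895) for Lama3, Rab3d (0.877) for Lamb3, and Plekhg2 (0.848) and Znrf1 (0.833) for Lama5. For Itgb4 they were Spns1 (0.838) and Crip2 (0.802), for Itga6 Inpp5b (0.767) and Psmd8 (0.733), and for Nid1 Bicc1 (0.812) and Cnrip1 (0.756). Lamc1 was most like Myadm (0.773) and Csf1 (0.76), Hspg2 most like Ctdnep1 (0.747) and Cercam (0.732), and Lamb1 most like Mmp11 (0.581) and Lhfp (0.521).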

How the data were processed

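Whole-skin biopsies of 24 mice were hybridised on 82 two-colour arrays, biopsy in Cy5 and reference in Cy3. The scanner files hold spot and local background intensity and 0 or 1 flags per spot, as deposited, made with Agilent Feature Extraction (version 11.0.1.1 per the labels' processing notes, while the file headers give 10.10.1.1 for the 57 arrays of scanner 2). They also hold a log10 ratio per spot that the scanner software computed before the authors deposited the files. A further table holds log2 values normalized by the authors, and the steps behind it are not given in the sources used here. It keeps 41174 of its 41267 rows here, those matched to a probe.

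From the median intensities, background was corrected by normexp (offset 50), control spots were dropped, a loess fit within each array normalized the ratios, spots with outlier flags were set to missing (3.52% of values) and spots of a probe were averaged. Normexp was fitted on spots without a background outlier flag, since fitting on all spots gave a background SD over 20 on 31 arrays (largest 5182, against 3 here). Of 41174 probes 66.9% were given a mouse symbol through their accession, and 1 probe a gene was followed, the one with the highest mean intensity. Probes well above background on at least 50% of the arrays of 1 group were tested (30294). A linear model with 1 mean for each of 23 groups was fitted in limma (R 4.3.3, limma 3.58.1, statmod 1.5.0), and p-values were adjusted after Benjamini and Hochberg across the tested probes of a comparison. Calls needed an adjusted p under 0.05 and a change of at least 2-fold. Where members are counted by an unadjusted p under 0.05, the share of all probes at that limit was not counted. Fold changes are log2 differences after the offset, and the number of arrays limits the precision. The model and the normexp fit were tried on simulated data without effects of scanner, slide, mouse or brightness. That trial says nothing about such effects. Figures used Python 3.11.15 and matplotlib 3.10.9.

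Several biopsies came from the same mouse. Deviations from the group means correlated at a median of 0.05 (-0.34 to 0.76) over 111 pairs of arrays of the same mouse and of 0 over 3096 pairs of different mice, and mouse as a block was an alternative. Other alternatives were the deposited values, the scanner software ratios, median centring, no background subtraction, other filters, scanner or slide as a block, each scanner alone, sham of all time points, the mean over all probes of a gene and leaving out each mouse. Chosen after seeing the data were normexp on all spots, an offset of 1, the deposited values without M022 at d7, and leaving out scan day 2.

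The members and lists were chosen with earlier results of these data known. Named are all 9 members, genes of the other lists called in at least 2 of 18 comparisons (at most 10, by the largest mean change), any gene where a count was 5 or fewer, and for each member the 2 genes most correlated with it. Some genes that this rule names are not reported here. Col4a4, Npnt, Tln1, Fermt1, Cd151, Col7a1, Col15a1 and Sparc were named after their values were seen.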

Additional observations from a re-analysis of the deposited data

Results flagged for a closer look

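In 15 of 124 sets of 4 to 10 arrays, 1 array lay far from the others of its dose and time point by Dixon's criterion, which chance alone meets in about 1 in 20. Sham mouse M002, the only sham mouse of h2 and d4 read on scanner 2, accounted for 5 of them. Its log2 ratio at d4 was 1.91 for Lama3 (others 2.75 to 2.86), -1.29 for Lama5 (others -0.41 to -0.33) and 3.81 for Itgb4 (others 4.35 to 4.41). At h2 it was 0.97 for Lamb3 (others 2.33 to 2.59) and 0.01 for Itga6 (others 1.41 to 1.46).

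Itga6 read 1.34 in M011 after 3 Gy at h2 (others 0.79 to 0.94) and 1.36 in M017 after 6 Gy at h2 (others 0.47 to 0.59), each the only scanner 1 array of its set. After 20 Gy, Lamc1 read 1.25 in M022 at h2 (others 0.94 to 0.98) and 0.77 in M023 at d4 (others 0.91 to 0.94). Lama5 read 0.17 in M012 after 3 Gy at d21 (others -0.98 to -0.82) and -0.11 in M020 after 6 Gy at d28 (others -1.51 to -1.31), and the latter array also had Hspg2 at 1.12 (others -0.35 to -0.14). Lamb3 read 2.61 in M006 after 1 Gy at d21 (others 1.51 to 1.56) and 1.96 in M009 at d28 (others 1.03 to 1.11), and Hspg2 read 0.86 in M008 after 1 Gy at d28 (others -1.32 to -1.07). The part of scanner in these values was not tested.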

How the results depend on the processing

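The numbers of members called depended on the processing, and the cause was not tested. Shares called over all probes were counted only for the main processing and, after 20 Gy, for the deposited values. For 20 Gy against sham (3 at h2, 4 at d4, 0 at d7), the deposited values gave 1, 0 and 1. Median centring in place of loess gave 9 at h2 and 8 at d4. The scanner software ratios gave 2 at d4 and 1 at d7, sham of all time points 2 at d4 and 2 at d7, normexp on all spots 2 at d4, slide as a random block 1 at d4 and scanner 1 alone 1 at d7. For 20 Gy against 6 Gy (3, 3 and 2), the deposited values gave 1 at h2 and 4 at d7, the scanner software ratios 1 at each time point, median centring 5, 5 and 0, normexp on all spots 1, 1 and 0, and slide as a random block 1 at d4 and 0 at d7. At d7 no background subtraction, no filter on dim probes, the mean over all probes of a gene and an offset of 1 gave 1 each. Over the 15 comparisons of 1, 3 and 6 Gy (0), sham of all time points gave 2, scanner 1 alone 2 of 53 values and normexp on all spots 1.

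With mouse as a random replicate block the counts of members called after 20 Gy against sham stayed at 3, 4 and 0, while changes between time points were called 2 times in place of 0. The latter count was 4 with the scanner software ratios, 7 with median centring, 2 without background subtraction, 1 with a strict filter, 3 with scanner as a fixed block, 6 on scanner 1 alone and 4 with an offset of 1. Of the other basement membrane and hemidesmosome genes (14, 11 and 6), the deposited values gave 8 at h2, median centring 30 at h2 and 31 at d4, the scanner software ratios 21 at d4 and 15 at d7, an offset of 1 gave 18 at d4, sham of all time points 11 at d7 and normexp on all spots 2 at d7. After 1, 3 and 6 Gy (0) they were called 8 times in the deposited values, 17 on scanner 2 alone, 6 with sham of all time points and 11 with normexp on all spots.

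Leaving out each mouse in turn gave 2 to 3, 2 to 5 (2 without M005) and 0 to 0 members called against sham, 3 to 4, 3 to 3 and 0 to 3 (0 without M018) against 6 Gy, 0 to 0 after sublethal doses, 0 to 1 for changes between time points and 0 to 0 for late against early. For the other genes the ranges were 12 to 16, 9 to 13, 2 to 7 and, after sublethal doses, 0 to 6.

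Directions turned for some genes. In the deposited values, with or without M022 at d7, Lamc1 was at -0.33 at h2 and Itgb4 at -0.84 at d4 against sham, Itgb4 at -0.85 and -1.05 against 6 Gy, and Smoc2 at -1.32 and -1.35. With median centring the values at h2 were -1.84 for Lama5, -1.71 for Lamb1, -1.56 for Lamc1, -1.78 for Itgb4, -2.04 for Nid1 and -0.62 for Fbln2. At d4 they were -1.33 for Lama5, -1.30 for Lamb1, -1.43 for Lamc1, -0.90 for Itgb4, -0.084 for Smoc2 and -0.55 for Fbln2. Against 6 Gy, Itgb4 was at -0.42 and -0.35, and Lamb3 at d7 at 0.04. Lamb3 at d7 against 6 Gy was 0.56 in the scanner software ratios, and Smoc2 at d4 was -0.15 as the mean over its probes. Without the arrays of scan day 2 no value at d7 after 20 Gy could be had.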
